A study of Mus musculus with 6 samples.

Results

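AP-1 and immediate early genes were examined in *Phf2* KO and control C2C12 cells 2 d post differentiation. C2C12 cells are myoblasts of a mouse line, and they fuse to myotubes once serum is lowered, here to 2% horse serum. The genes were the 10 rows of the count matrix with the symbols *Fos*, *Fosb*, *Fosl1*, *Fosl2*, *Jun*, *Junb*, *Jund*, *Egr1*, *Atf3* and *Ier2*, out of 55401 genes in the matrix, and all 10 were among the 17310 genes that passed the filter on low counts. The 3 control libraries came from mock cells that carried Cas9, ZsGreen and a guide without a match in the mouse genome (wild type by the labels). The 3 *Phf2* KO libraries came from cells that received 4 pooled guides against *Phf2*, which encodes a histone demethylase of H3K9me2. The transfected cells were sorted, expanded and stored frozen as pools without cloning, and the libraries were wells of a single experiment, so the p-values measure the spread between wells, and effects of the pool and of *Phf2* cannot be told apart.

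AP-1 is a transcription factor formed by a dimer of basic leucine zipper proteins, most often one of the Fos family with one of the Jun family. Fos proteins need a Jun partner to bind DNA, whereas Jun proteins can also pair with each other, and ATF3 is a related leucine zipper protein that joins Jun proteins under stress. Many of these genes are immediate early genes, which serum, growth factors and handling induce within minutes and without new protein synthesis, and whose mRNA decays quickly; *Egr1*, a zinc finger factor, and *Ier2*, a small nuclear protein, belong to the same early wave. In myoblasts, high Fos and Jun activity is known to oppose MyoD and to go with proliferation.

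*Phf2* was measured first. Its level was 102.4, 95.5 and 104.6 CPM in control replicates 1, 2 and 3, and 41.1, 37.6 and 38.6 CPM in *Phf2* KO replicates 1, 2 and 3, where CPM is the estimated count scaled to a common library size with TMM. The log2 fold change was -1.37 (adjusted p = 8.32e-09 from the quasi-likelihood test of edgeR described next). This is a level of RNA, and the paper also measured PHF2 protein, which it reports as far lower in the knockout myoblasts. The total of estimated counts ran from 52526109 to 67502788 per library, and a read pair added about 4 to them, so totals and counts exceed the number of fragments. Of 11 skeletal muscle markers, 10 reached a mean of 1 CPM, with *Pax7*, the satellite cell factor, below it. Their summed level was 9148 to 10830 CPM in control libraries and 7290 to 7882 CPM in *Phf2* KO libraries, and 5 of the 11 were lower past the threshold of an adjusted p under 0.05, against 3.26% of all genes tested. The 8 markers of proliferating cells summed to between 271 and 289 CPM in control libraries and between 256 and 283 CPM in *Phf2* KO libraries. The 6 fibroblast markers summed to between 208 and 277 CPM in control and between 196 and 230.2 CPM in *Phf2* KO libraries, with *Thy1* at 0. Adipocyte markers (5, with *Plin1* and *Lep* at 0), endothelial markers (5) and leukocyte markers (6, with *Adgre1* at 0) summed to at most 2.91 CPM in any library. The part of these markers in the results was not tested.

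None of the 10 genes passed the threshold between *Phf2* KO and control cells. In the quasi-likelihood test of edgeR, with p adjusted by Benjamini-Hochberg over the 17310 genes, 0 of 10 had an adjusted p under 0.05, against 6.48% of all genes tested (3.22% higher and 3.26% lower in *Phf2* KO cells). Their unadjusted p was also under 0.05 for 0 of 10, and exactTest of edgeR, DESeq2 and limma-voom called 0 as well. The log2 fold changes ran from -0.38 for *Fosl1* to 0.33 for *Fos*, with a median of 0.11 against -0.00096 over all genes tested, and 7 of the 10 were positive. The 2 groups of libraries did not overlap for 1 gene, *Fosl1*, which was lower in *Phf2* KO cells, where 25.1% of all genes tested did not overlap (12.9% higher and 12.2% lower). In bulk RNA, fewer cells that express a gene and less of its RNA per cell cannot be told apart.

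**Figure D1:**
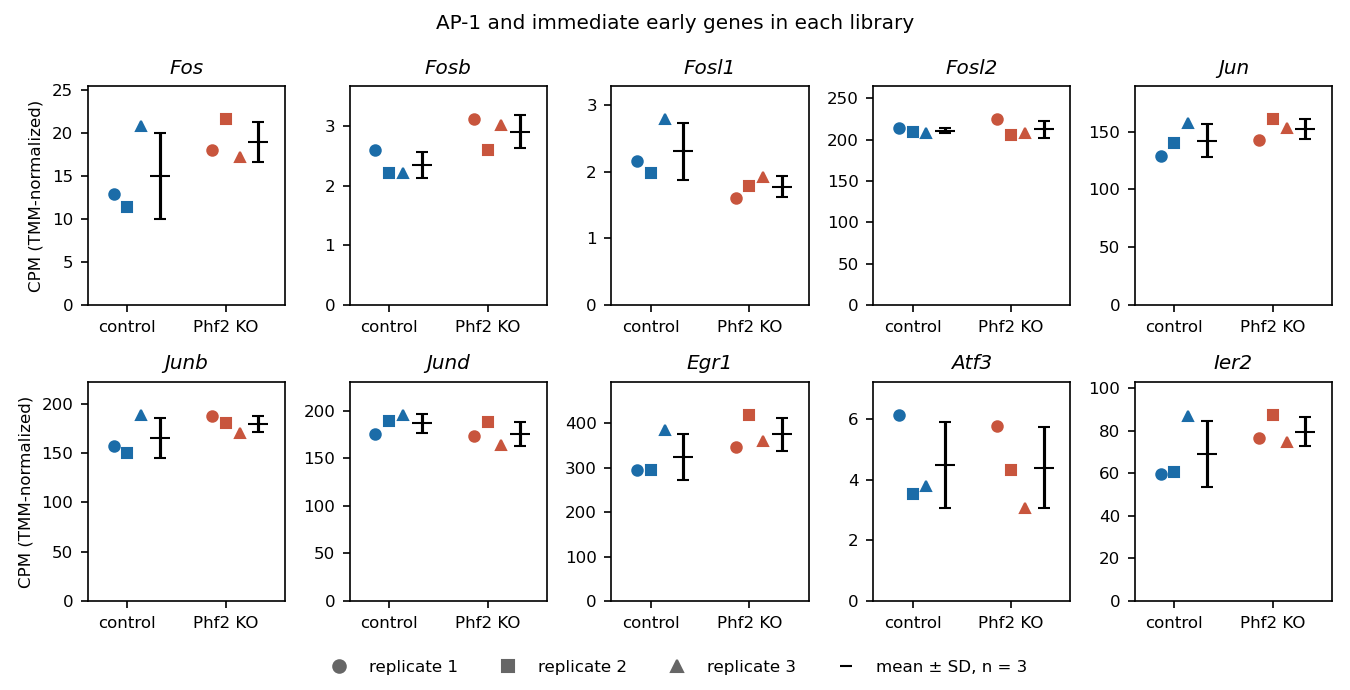
TMM-normalized level (CPM, axis from 0) of the 10 genes in each library, with 1 point per library, the replicate number as the marker shape, and the mean ± SD of 3 libraries beside the points. In *Fos*, *Ier2*, *Egr1* and *Junb*, control replicate 3 lies among or above the *Phf2* KO libraries while control replicates 1 and 2 lie below them.

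The Fos family came first. *Fos* (ENSMUSG00000021250, chromosome 12, 85473890 to 85477273 in mm10), the founding immediate early gene of AP-1, was at 12.9, 11.4 and 20.8 CPM in control replicates 1, 2 and 3, and at 18.03, 21.6 and 17.2 CPM in *Phf2* KO replicates 1, 2 and 3. Control replicates 1 and 2 were below every *Phf2* KO library, but control replicate 3 was above 2 of the 3, so the groups overlapped. Control libraries averaged 15.02 ± 5.02 CPM (SD, n = 3), and *Phf2* KO libraries 18.9 ± 2.32 CPM (SD, n = 3). The log2 fold change was 0.33 with a 95% interval from -0.27 to 0.93 (adjusted p = 0.551, edgeR's quasi-likelihood test).

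*Fosl1* (ENSMUSG00000024912, chromosome 19, 5447547 to 5455946) encodes FRA1, a Fos protein without the activation domain of FOS. Its level was 2.16, 1.97 and 2.78 CPM in the control libraries and 1.61, 1.79 and 1.92 CPM in the *Phf2* KO libraries, so every *Phf2* KO library was below every control library by CPM. The log2 fold change was -0.38 with a 95% interval from -0.88 to 0.12 (adjusted p = 0.424, edgeR's quasi-likelihood test). On the TPM scale, which divides by transcript length, the groups overlapped, with 5.04, 6.78 and 7.43 TPM in control and 3.31, 4.18 and 5.25 TPM in *Phf2* KO libraries.

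*Fosb* (ENSMUSG00000003545, chromosome 7, 19302696 to 19310051), another inducible Fos gene, was the gene with the lowest level per length. Its level was 2.60, 2.22 and 2.22 CPM in control and 3.11, 2.59 and 3.01 CPM in *Phf2* KO libraries, on estimated counts of 129 to 204. The highest control library was at nearly the same level as the lowest *Phf2* KO library, and the log2 fold change was 0.31 with a 95% interval from -0.12 to 0.74 (adjusted p = 0.453, edgeR's quasi-likelihood test). *Fosl2* (ENSMUSG00000029135, chromosome 5, 32135801 to 32157842) encodes FRA2. It was at 214, 209 and 209 CPM in control and 224, 205 and 208 CPM in *Phf2* KO libraries. Its log2 fold change of 0.01 had the narrowest interval of the 10 genes, from -0.08 to 0.11, which corresponds to 0.944-fold to 1.08-fold (adjusted p = 0.916, edgeR's quasi-likelihood test).

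Among the Jun genes, *Jun* (ENSMUSG00000052684, chromosome 4, 95049034 to 95052222), which encodes the main partner of FOS, was at 129, 140.2 and 157 CPM in control and 143, 160.5 and 153 CPM in *Phf2* KO libraries. *Junb* (ENSMUSG00000052837, chromosome 8, 84976910 to 84978718), whose product is a weaker activator that can oppose JUN, was at 157, 150 and 189 CPM in control and 187, 181 and 171 CPM in *Phf2* KO libraries. *Jund* (ENSMUSG00000071076, chromosome 8, 70698949 to 70700616), the Jun gene with the steadiest expression in most tissues, was at 176, 189 and 195 CPM in control and 174, 188 and 164 CPM in *Phf2* KO libraries. The groups overlapped for all 3 genes, with control replicate 3 the highest control library of each. The log2 fold change was 0.10 (95% interval -0.06 to 0.25) for *Jun*, 0.12 (-0.06 to 0.30) for *Junb* and -0.09 (-0.21 to 0.03) for *Jund*, with adjusted p = 0.510, 0.482 and 0.432 from the quasi-likelihood test of edgeR.

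The last 3 genes were not of the Fos and Jun families. *Egr1* (ENSMUSG00000038418, chromosome 18, 34859823 to 34864984) was at 294, 295 and 385 CPM in control and 347, 418 and 359.9 CPM in *Phf2* KO libraries, and *Ier2* (ENSMUSG00000053560, chromosome 8, 84661331 to 84662854) was at 59.8, 60.5 and 86.8 CPM in control and 76.4, 87.2 and 74.9 CPM in *Phf2* KO libraries. In both, control replicates 1 and 2 were nearly equal and below every *Phf2* KO library, and control replicate 3 was above 2 of the *Phf2* KO libraries. The log2 fold change was 0.21 (95% interval -0.16 to 0.57) for *Egr1* and 0.20 (-0.27 to 0.67) for *Ier2*, with adjusted p = 0.527 and 0.645 (edgeR). *Atf3* (ENSMUSG00000026628, chromosome 1, 191170296 to 191218039) had another pattern, with 6.14, 3.54 and 3.795 CPM in control and 5.77, 4.34 and 3.09 CPM in *Phf2* KO libraries. Replicate 1 was the highest library of both groups, and the log2 fold change was -0.03 with a 95% interval from -0.60 to 0.54 (adjusted p = 0.974, edgeR).

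Leaving out control replicate 3 changed the result for 4 of the 10 genes. Each library was left out in turn, and in 5 of these 6 fits the number of genes past the threshold was 0. Without control replicate 3 it was 4, all higher in *Phf2* KO cells, against 5.8% of the 17911 genes tested in that fit (2.83% higher). The log2 fold change was then 0.64 for *Fos* (95% interval 0.37 to 0.90, adjusted p = 0.00766 from edgeR), 0.40 for *Ier2* (0.26 to 0.54, adjusted p = 0.00286), 0.345 for *Egr1* (0.19 to 0.50, adjusted p = 0.0155) and 0.22 for *Junb* (0.10 to 0.35, adjusted p = 0.0378). For *Fos*, adjusted p over the 6 fits reached 0.799, for *Ier2* 0.873, for *Egr1* 0.771 and for *Junb* 0.818. The direction of all 4 was positive in every fit. In each of these 4 genes control replicate 3 was the highest control library, so leaving it out raised the estimate. The standard error fell as well, from 0.244 to 0.121 for *Fos* and from 0.179 to 0.0651 for *Ier2*. For *Egr1* it fell from 0.141 to 0.0699, and for *Junb* from 0.0798 to 0.057. These intervals and adjusted p-values thus leave out the spread between control wells that control replicate 3 adds. They do not show that this library is the one in error. The 4 genes moved together over the libraries, so their calls are not independent. *Jun* had a log2 fold change of 0.175 without that library and did not pass the threshold (adjusted p = 0.149, edgeR).

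**Figure D2:**
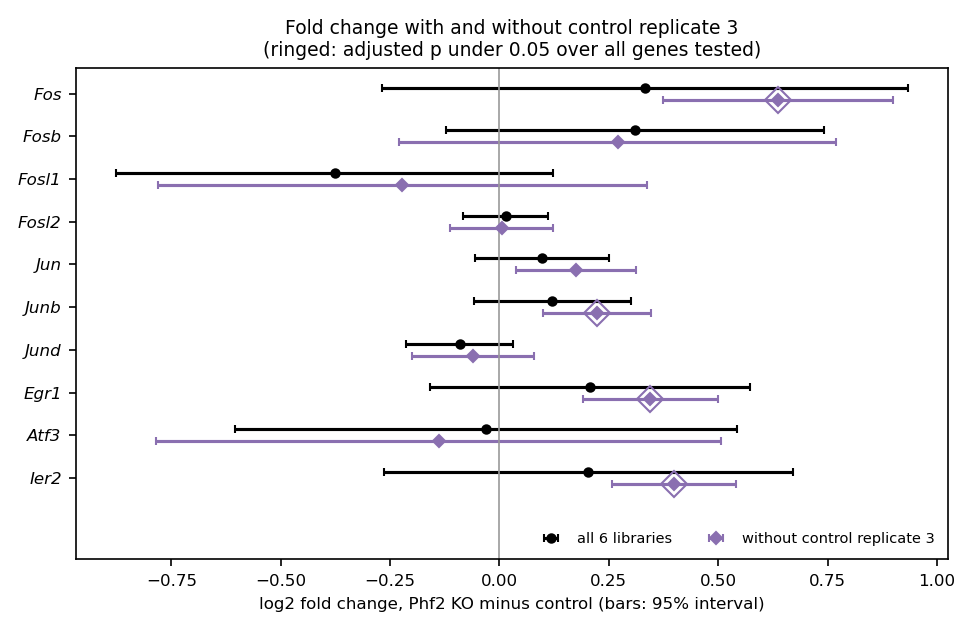
Log2 fold change of each gene (*Phf2* KO minus control, x axis) with its 95% interval, from the fit of all 6 libraries (black circles) and from the fit without control replicate 3 (violet diamonds), where a ring marks an adjusted p under 0.05. All 10 black intervals include 0, and the 4 ringed genes are *Fos*, *Junb*, *Egr1* and *Ier2*.

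The level of control replicate 3, divided by the mean of control replicates 1 and 2, was 1.71 for *Fos*, 1.44 for *Ier2*, 1.35 for *Fosl1*, 1.30 for *Egr1*, 1.23 for *Junb*, 1.17 for *Jun* and 1.07 for *Jund*, and it was 0.986 for *Fosl2*, 0.921 for *Fosb* and 0.785 for *Atf3*. Control replicate 3 was thus the highest of the 3 control libraries for 7 of the 10 genes, while it was the highest for 34% of all genes tested. It was also the highest for 32 of 49 other immediate early genes (65.3%). The same held for 19 of 35 genes known as AP-1 targets (54.3%) and 4 of 8 leucine zipper partners of AP-1 (50%). It held for 15 of 36 upstream kinases and promoter factors (41.7%), so a share above that of all genes was not particular to immediate early genes. Among the *Phf2* KO libraries, replicate 2 was the highest in 5 of the 10 and in 27 of the 49 other immediate early genes (55.1%), against 31.8% of all genes tested. It was the highest for 34.3% of the AP-1 targets, 50% of the partners and 38.9% of the upstream genes. The share of mitochondrial counts in control replicate 3 was 3.58%, within the 3.51% to 3.71% of all libraries. The source of the difference between control wells was not tested.

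Libraries with the same replicate number deviated together over all genes, and the difference within these pairs was taken as well. No label or method says what a replicate number stands for, so the pairing is read from the values alone. The log2 ratio of *Phf2* KO to control was 0.49, 0.92 and -0.27 for *Fos* in pairs 1, 2 and 3. It was 0.35, 0.53 and -0.21 for *Ier2*, 0.24, 0.50 and -0.10 for *Egr1*, and 0.25, 0.27 and -0.14 for *Junb*. In all 4 genes the first 2 pairs were positive and the third was negative. *Fosb* was positive in all 3 pairs (0.26, 0.23 and 0.44). *Fosl1* (-0.42, -0.14 and -0.53) and *Jund* (-0.02, -0.004 and -0.25) were negative in all 3. The share of all genes tested with the same sign in all 3 pairs was not counted. With the pair as a block in the fit, 0 of the 10 genes passed the threshold, and the smallest adjusted p of the 10 was 0.267, for *Jun* (edgeR's quasi-likelihood test).

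**Figure D3:**
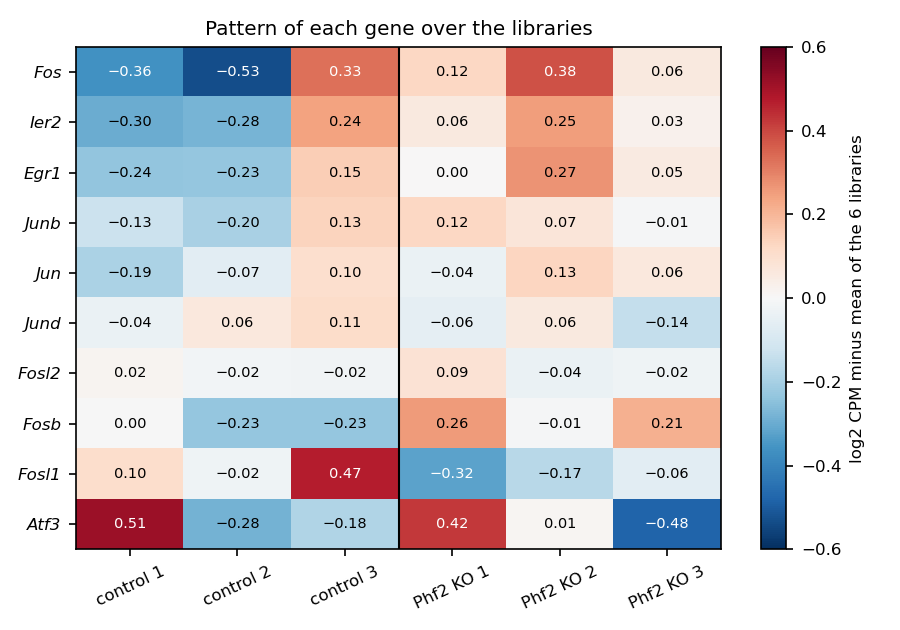
Log2 CPM of each gene in each library minus its mean over the 6 libraries (numbers and colour, red above and blue below the mean), with control libraries to the left of the line. *Fos*, *Ier2*, *Egr1*, *Junb* and *Jun* are lowest in control replicates 1 and 2 and have their highest value in control replicate 3 (*Junb*) or *Phf2* KO replicate 2 (the other genes), while *Fosl2* is near 0 in all libraries.

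The spread between wells differed among the 10 genes. The SD of log2 CPM within groups was 0.34 for *Fos*, 0.23 for *Ier2* and 0.19 for *Egr1*, and 98.1%, 98.6% and 98.3% of the genes within a factor of 2 of their level had a smaller SD. For *Junb* the SD was 0.13 and for *Jun* 0.12, with 94.9% and 93.8% of the genes of like level below them, and *Atf3* stood at 93.6% with an SD of 0.44. *Jund* stood at 86.5%. In contrast, *Fosl2* had an SD of 0.05 and stood at 44.7%, *Fosl1* at 22.4% and *Fosb* at 9.6% of the genes of like level. The 5 genes *Fos*, *Ier2*, *Egr1*, *Junb* and *Jun* thus varied more between wells of a group than at least 93.8% of genes of like level.

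As a description over the 6 libraries, the deviations of *Fos* from its group means had a Pearson r of 0.98 with those of *Ier2*, 0.95 with *Egr1*, 0.92 with *Junb*, 0.77 with *Jun*, 0.62 with *Jund* and -0.26 with *Fosl2*. The 3 genes most like *Fos* among 10922 genes (mean level 5 CPM or more) were *Kank2*, *Col27a1* and *Ndst2* (r = 0.999, 0.998 and 0.996), and 260 genes had an r above 0.9. For *Jund*, the gene with the highest level per length, they were *Rnf220*, *Lmna* and *Ptms* (r = 0.996, 0.994 and 0.993), and 214 genes had an r above 0.9. All these values rest on the same 6 libraries and their scaling. Deviations from group means over 6 libraries leave few free values, so a high r can arise between unrelated genes. How many of the 10922 genes would pass an r of 0.9 in that way was not counted.

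The promoters of *Fos*, *Junb* and *Jun* are shown because these genes moved together over the libraries, and that of *Fosl2* because its level varied little. Each sequence is the 150 bases before the RefSeq start (GRCm38.p6), 5′ to 3′ on the strand of the gene, with matches to TGACG (the core of the cAMP response element, bound by CREB and ATF proteins), TATAAA and the MEF2 site in capitals.
Fos, chr12:85473740-85473889, plus strand: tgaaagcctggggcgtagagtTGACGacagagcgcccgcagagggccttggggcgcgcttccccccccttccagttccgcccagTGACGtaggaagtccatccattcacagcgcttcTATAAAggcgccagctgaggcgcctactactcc
Junb, chr8:84978749-84978898, minus strand: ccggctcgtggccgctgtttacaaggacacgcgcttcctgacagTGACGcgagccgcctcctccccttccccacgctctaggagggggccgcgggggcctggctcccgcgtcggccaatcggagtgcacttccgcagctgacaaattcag
Jun, chr4:95052223-95052372, minus strand: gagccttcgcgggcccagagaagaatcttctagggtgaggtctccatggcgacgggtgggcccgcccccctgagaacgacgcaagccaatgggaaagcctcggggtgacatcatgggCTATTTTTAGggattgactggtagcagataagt
Fosl2, chr5:32136322-32136471, plus strand: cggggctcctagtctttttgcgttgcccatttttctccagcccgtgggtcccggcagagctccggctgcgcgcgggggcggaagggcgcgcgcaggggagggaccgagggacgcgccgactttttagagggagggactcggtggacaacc

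Promoter windows of 250 bases before to 50 after the RefSeq start were at hand for 7 of the 10 genes, all but *Fosl1*, *Egr1* and *Ier2*. On both strands, the full motifs TGACTCA (the AP-1 site), TGACGTCA (the cAMP response element) and the CArG box (the site of SRF) were found in 0 of the 7, where 5.2%, 1.79% and 1.63% of 32851 promoters held them. Sites outside the windows, or that differ from these motifs by a base, were not counted. The 0 therefore does not show that a gene lacks such a site. The motif TGACG, which is part of TGACGTCA and was chosen after the sequences were seen, as was the MEF2 site, was found in *Fos*, *Fosb*, *Junb* and *Atf3*, against 20.8% of promoters. In *Fos* it began 129 and 66 bases before the start, and TATAAA, which 13.6% of promoters held, began 33 bases before it, and TATAAA also began at the RefSeq start of *Junb*, which lies at -30 from the start of that gene in GENCODE M21. The MEF2 site was found in *Jun*, beginning 33 bases before the start, and in *Atf3*, against 0.557% of promoters. CANNTG (the E-box of MyoD and myogenin) was found in 6 of the 7, all but *Fosl2*, against 72.3% of promoters. Counted from the start of the gene in GENCODE M21, the RefSeq start lies at 671 for *Fosl2*, at -1210 for *Jund* and at 34706 for *Atf3*. The windows of *Fosl2* and *Atf3* thus lie inside the gene of GENCODE M21, and that of *Jund* lies wholly before it.

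The genes have few exons. *Jun*, *Junb*, *Jund* and *Ier2* have a coding transcript of 1 exon, *Egr1* of 2, and the Fos genes and *Atf3* of 4, where the median of the 13402 protein-coding genes tested was 9 exons and 8.36% had 1 or 2. *Jun* overlaps the antisense gene *Junos*, *Jund* overlaps *Gm11175*, *Fosl1* overlaps *Ccdc85b* and *Atf3* overlaps the small RNA gene *Gm24748*, each on the opposite strand. The library kit keeps strand, but whether the counting used it is not given in the sources used here, so reads of these partners may be part of the values.

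Levels were compared between genes on the TPM scale. *Jund* was the highest, with 242 ± 13.5 TPM (SD, n = 3) in control and 229 ± 13.8 TPM (SD, n = 3) in *Phf2* KO libraries, followed by *Junb* with 197 ± 25.7 and 216 ± 5.36 TPM and *Egr1* with 156 ± 26.0 and 182 ± 18.4 TPM. The ranges over the 6 libraries overlapped between *Jund* and *Junb* and between *Junb* and *Egr1*. *Ier2* (84.6 to 124 TPM) and *Jun* (87.1 to 109 TPM) came next and overlapped each other, and *Fosl2* followed at 67.5 to 74.4 TPM, below both. *Fos* was at 11.7 to 22.9 TPM, *Fosl1* at 3.31 to 7.43, *Atf3* at 3.47 to 6.65 and *Fosb* at 0.747 to 1.5 TPM. *Fosl1* and *Atf3* overlapped, and the other neighbours in this part of the order did not.

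**Figure D4:**
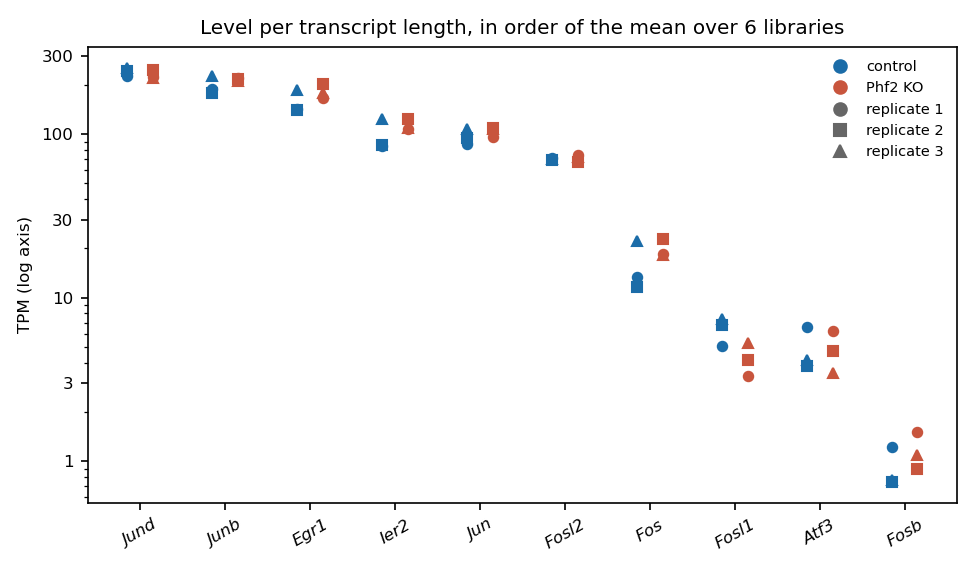
TPM of each gene in each library on a log axis, in order of the mean over the 6 libraries, with control libraries in blue, *Phf2* KO libraries in red and the replicate number as the marker shape. The 3 Jun genes, *Egr1* and *Ier2* lie above *Fosl2*, and *Fos*, *Fosl1*, *Atf3* and *Fosb* lie below it by a wide gap.

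Within the families, *Fosl2* made up most of the summed Fos TPM, with 78.6%, 78.4% and 69.9% in control and 76.1%, 70.7% and 74.5% in *Phf2* KO libraries. *Fos* made up 14.6%, 13.2% and 22% in control and 18.9%, 24.0% and 18.9% in *Phf2* KO libraries. *Fosl1* was at 5.52%, 7.63% and 7.36% in control and 3.39%, 4.38% and 5.42% in *Phf2* KO libraries, without overlap, and *Fosb* was at most 1.53%. The summed level of the Fos family was 93.6 ± 6.44 TPM (SD, n = 3) in control and 96.6 ± 1.15 TPM (SD, n = 3) in *Phf2* KO cells. The summed Jun level was more than 5 times as high, at 535 ± 46.2 and 549 ± 18.6 TPM. *Jund* made up 45.3%, 47.2% and 43.3% of it in control and 41.3%, 42.9% and 40.8% in *Phf2* KO libraries, without overlap, and *Junb* 37.3%, 34.5% and 38.5% in control and 41.0%, 38.0% and 39.2% in *Phf2* KO libraries. These shares are descriptions and were not tested. Shares within a family are tied to each other. By TPM itself, the groups overlapped for *Fosl1* and for *Jund*. By CPM, 25.1% of all genes tested did not overlap.

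Genes related to the 10 by function were counted in the same fit in 4 lists. Among 49 tested immediate early genes outside the 10, 6 passed the threshold as higher in *Phf2* KO libraries and 3 as lower (18.4%, against 6.48% of all genes tested), and the median log2 fold change was 0.03. *Ccn2*, which encodes the matricellular protein CTGF, rose from 276, 285 and 312 CPM in the control libraries to 453, 418 and 423 CPM in the *Phf2* KO libraries, or 0.57 ± 0.05 on the log2 scale (± standard error; adjusted p = 3.22e-05, edgeR). *Errfi1*, an inhibitor of the EGF receptor, rose with a log2 fold change of 0.41 ± 0.06 (adjusted p = 0.00208, edgeR). *Gadd45b*, a stress-induced growth arrest gene, fell from 33.2, 31.4 and 29.3 CPM to 21.5, 23.0 and 23.0 CPM, a log2 fold change of -0.48 ± 0.07 (adjusted p = 0.00154, edgeR). *Sik1*, a kinase of class IIa histone deacetylases, fell by 0.39 on the log2 scale (adjusted p = 0.00134, edgeR), and *Nr4a3*, an orphan nuclear receptor of low level (1.70, 2.08 and 2.35 CPM in control and 0.699, 0.914 and 1.182 CPM in *Phf2* KO libraries), fell by 1.13 (adjusted p = 0.0302, edgeR). These 5 genes were picked from those past the threshold for the largest change. In them the groups did not overlap, so control replicate 3 lay on the side of the other control libraries. Over the 49 genes, the groups did not overlap for 9 that were higher and 6 that were lower in *Phf2* KO libraries. Of all genes tested, 12.9% and 12.2% did not overlap in these directions. *Nr4a3* passed in only 2 of the 6 fits that left out a library. The number of calls was 4 without control replicate 2 and 4 without *Phf2* KO replicate 2.

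Of 13 leucine zipper genes that can join AP-1 (the Maf and Batf groups, *Nrl*, *Atf2*, *Atf7* and *Jdp2*), 8 were tested and 1 passed (12.5%, against 6.48% of all genes tested). *Mafa*, a large Maf factor best known as an activator of the insulin gene, was at 19.4, 18.5 and 17.4 CPM in control and at 8.13, 10.5 and 8.33 CPM in *Phf2* KO libraries, or -1.04 ± 0.11 on the log2 scale (± standard error; adjusted p = 1.19e-04, edgeR), and it passed in all 6 fits that left out a library. Of 36 tested kinases and promoter factors upstream of immediate early genes, 2 were higher past the threshold and 0 were lower (5.56%, near the 6.48% of all genes tested). These were *Map2k4*, a kinase that activates JNK, with a log2 fold change of 0.19 (adjusted p = 0.0484, edgeR), and *Elk3*, an ETS factor that binds with SRF, with 0.16 (adjusted p = 0.0474, edgeR). Neither passed with the pair as a block, nor in any of the 6 fits without a library.

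Of 35 tested genes known as AP-1 targets in other cells, 1 passed as higher and 3 as lower (11.4%, against 6.48% of all genes tested), and the median was -0.09 on the log2 scale. *Plau*, the urokinase gene, fell from 67.2, 70.7 and 74.8 CPM in control to 52.1, 54.9 and 57.0 CPM in *Phf2* KO libraries, or -0.37 ± 0.06 on the log2 scale (± standard error; adjusted p = 0.00132, edgeR). *Hmox1* (heme oxygenase 1) and *Ezr* (ezrin) fell by 0.26 and 0.23 on the log2 scale (adjusted p = 0.0220 and 0.0232, edgeR), and *Ccnd1* (cyclin D1) rose by 0.33 (adjusted p = 0.0497, edgeR). Of the 6 fits that left out a library, *Hmox1* passed in 1, *Ezr* in 2 and *Ccnd1* in 2, and *Ccnd1* passed in 7 of all 18 alternatives. With the pair as a block, 9 of the 35 passed, against 7.6% of all genes tested. The count ran from 1, without control replicate 2 or without *Phf2* KO replicate 2, to 7 without control replicate 1, and it was 2 without *Phf2* KO replicate 1 or 3.

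**Figure D5:**
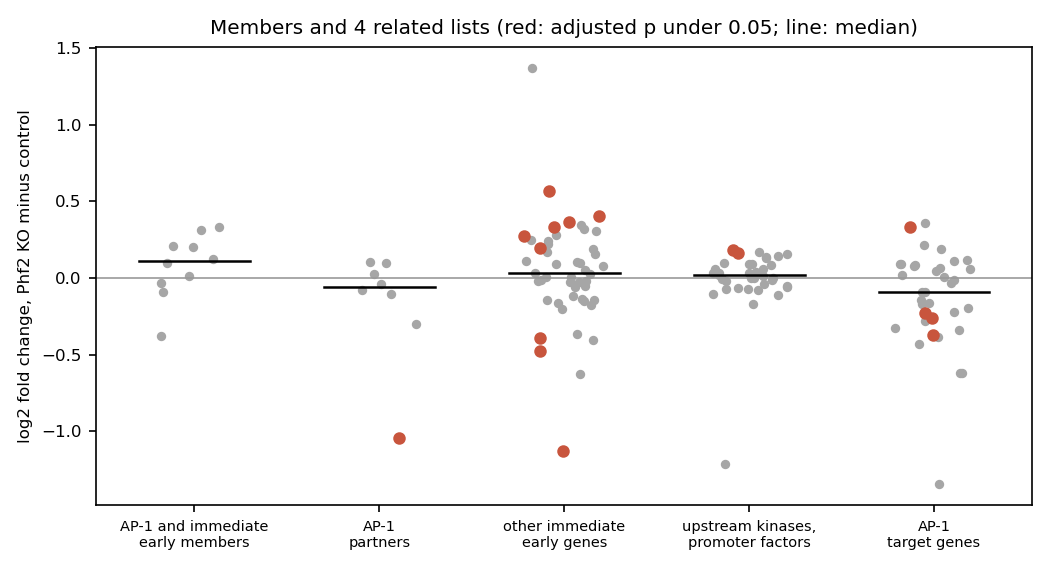
Log2 fold change (*Phf2* KO minus control, y axis) of the 10 genes and of the tested genes of the 4 related lists, with 1 point per gene, an adjusted p under 0.05 in red, and the median as a line. The 10 genes hold no red point, and the 9 red points of the other immediate early genes lie on both sides of 0.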

How the data were processed

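RNA sequencing of 6 libraries of polyadenylated RNA (3 control and 3 *Phf2* KO) was analysed, grouped by the sample titles. Reads were mapped by the authors with HISAT2 (mm10). The deposited matrix holds the estimated count per gene that the authors obtained with StringTie, as whole numbers without scaling. Versions and annotation are not given in the sources used here. The median of coverage times length per estimated count was 74.98 to 74.99. For single libraries, the authors deposited coverage and TPM (a signal scaled per library); rows of reference genes were used, and FPKM was not.

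The estimated counts went into edgeR 4.0.16 (R 4.3.3): filterByExpr (minimum count 10), TMM, robust quasi-likelihood test, Benjamini-Hochberg adjustment over 17310 genes, threshold 0.05. Standard errors are the absolute log2 fold change over the square root of F. Alternatives used DESeq2 1.42.0 and limma 3.58.1. Figures were drawn with Python 3.11.15. Same-numbered libraries deviated together (correlations 0.183, 0.345 and 0.234 across 10923 genes), so the replicate number was also used as a block. Between libraries of different numbers the correlations ran from -0.29 to 0.0899. On simulated data with 200 of 16851 genes changed, the test called 85% of 2-fold and 71% of 1.5-fold changes, and 11 of its 167 calls were unchanged genes. The changed genes were drawn at random among those above a minimum mean level, and the libraries were simulated without the pairing. These shares therefore need not hold for genes of low level, or for genes of large spread such as *Fos*, *Ier2* and *Egr1*.

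The 10 genes and the lists were chosen with earlier results of these data known. Named were *Phf2*, the 10 genes, at most 5 genes past the threshold with the largest change of each list, and the 3 genes most like *Fos* and the gene of highest TPM. Promoters are RefSeq's (GRCm38.p6), and exons and overlaps are from GENCODE M21 (GRCm38, the assembly of mm10).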

Additional observations from a re-analysis of the deposited data

How the results depend on the processing

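The number of the 10 genes past the threshold was 0 in all 13 alternatives that kept every library (other tests, normalizations, filters, the pair as a block, counts divided by 4, TPM, a threshold of 0.01), and it ran from 0 to 4 when 1 library was left out. The estimate of *Atf3* changed sign without control replicate 1 (0.26) and without *Phf2* KO replicate 3 (0.173), over a range from -0.276 to 0.26 when 1 library was left out. That of *Fosl2* did so without *Phf2* KO replicate 1 (-0.0257), over a range from -0.0257 to 0.0388. Neither gene passed the threshold in these fits. The replicate block gave 1316 genes past the threshold in place of 1122, 11 of the other immediate early genes in place of 9, 9 AP-1 targets in place of 4 and 0 upstream genes in place of 2. Of all genes, 158 passed with limma on log2(TPM + 1), 178 on log2(TPM + 0.1) and 472 at an adjusted p under 0.01, and 468 to 1039 without 1 library. Of the other immediate early genes, 14 passed with DESeq2, 2 and 2 in the TPM fits, 4 at 0.01 and 4 to 11 without 1 library. Of the upstream genes, 1 passed with the size factors of DESeq2, with library size alone and with no filter, and 0 with exactTest, limma-voom, upper-quartile normalization, the TPM fits, at 0.01 and without any 1 library. Of the AP-1 targets, 7 passed with exactTest, 9 with DESeq2, 0 in the TPM fits, 1 at 0.01 and 1 to 7 without 1 library. The count of AP-1 partners was 1 throughout. The causes were not tested. With 3 wells per group, the 95% interval of *Fos* reached from 0.83-fold to 1.91-fold, and *Fosb* and *Fosl1* rest on few counts.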
